A study of Mus musculus with 9 samples.

Results

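The Rab genes encode the largest branch of small GTPases that steer membrane vesicles, and the open chromatin at their gene ends was read here in mouse melanoma cells. Members were the protein-coding genes of the RefSeq annotation (GRCm38.p6) whose symbol is Rab, a number and at most 2 letters. Of 21887 coding genes, 61 symbols matched. Rab5if and Rab3ip match by their letters but encode no GTPase, so 59 genes were counted. B16 is a melanoma line of the C57BL/6 mouse. The study compared 3 kinds of tumour with 3 ATAC-seq libraries each. The group B16_untreated held B16 cells given no treatment. The group B16_IFNg held B16 cells kept in interferon gamma before they were put into mice, for 2 weeks in replicates 1 and 2 and for 3 weeks in replicate 3. It is also written as B16 after IFNγ, and B16_untreated as untreated B16. The group Res499 held untreated cells of a line, labelled 499, that came from B16 and resists checkpoint blockade. In all 3 groups the cells grew as tumours in mice and were sorted after harvest on day 15. The sort markers, the number of mice behind a library and whether the resistant line is 1 clone are not given in the sources used here. The p-values below therefore measure only the spread between libraries.

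A Rab protein works as a switch. Bound to GTP it sits on a membrane and recruits effectors such as tethers and motors, and after GTP hydrolysis a chaperone lifts it back into the cytosol. Each Rab marks its own compartment, so that the family as a whole gives vesicles an address. Pigment cells are known for one special use of it: Rab32 and Rab38 deliver pigment enzymes to the melanosome, and Rab27a ties the mature melanosome to the actin network near the cell surface.

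ATAC-seq cuts and tags DNA where chromatin is open, and a peak is an interval in which tags pile up beyond the local background. Each library came with its own peak list, and these lists differed in length from 9214 to 25362 peaks on named chromosomes. Each list was therefore cut to its 9214 most significant peaks, called the top list here, and a gene took the rank of its best peak within 1 kb of either annotated end. Rank 1 is the most significant peak of a library, and a gene without a peak in the top list was given rank 9215. Ranks rest on a summit's significance and not on gene length, and a peak speaks of accessibility, not of expression. In bulk tumour samples, fewer open cells and less signal per cell cannot be told apart. A pair of technical features runs through the libraries: the shortest peak was at least 150 bp in 4 libraries (B16_untreated 1 and 3, B16_IFNg 3, Res499 3) and shorter in the other 5, and chromosome X held 0.955% to 1.11% of the used peaks in Res499, 1.31% to 1.96% in untreated B16 and 1.18% to 1.67% after IFNγ. Of 7 melanocyte genes, 5 had a peak in at least 5 full lists. Pmel was one of them, but its peak is the one at the Rab5b start. Sox10 and Mlana, also melanocyte genes, had 1 library each, of B16_untreated for Sox10 and of Res499 for Mlana. Of 14 marker genes of leukocytes, endothelium and fibroblasts, 3 had a peak in any full list (Cd4, Col1a1 and Pdgfrb), and Ptprc, the pan-leukocyte gene, had none. Some markers moved with the groups and others did not. The melanocyte genes Mitf and Pmel were in 3 top lists of each group. Among pigment enzyme genes, Tyrp1 was in 3, 2 and 0 top lists of B16_untreated, B16_IFNg and Res499. Tyr was in 1 top list of each group and in 3, 3 and 1 full lists. Dct was in 2 top lists and 3 full lists of each group. The fibroblast gene Col1a1 was in 0, 2 and 1 top lists and in 3, 3 and 1 full lists.

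Rab genes were accessible more often than coding genes in general. In the top lists, 39, 37 and 35 of the 59 genes had a peak in the B16_untreated libraries, which is 62.7% ± 3.39 (SD, n = 3). In B16_IFNg the counts were 36, 37 and 36, or 61.6% ± 0.979 (SD, n = 3). In Res499 they were 34, 34 and 33, or 57.1% ± 0.979 (SD, n = 3). The Res499 libraries were thus the 3 lowest, with no overlap with either other group. Over all coding genes the same shares were 32.9% ± 0.601, 33.5% ± 0.977 and 33.6% ± 1.08 (SD, n = 3 each), so the genome-wide share was not lower in Res499. In the top lists Tyrp1 also had fewest libraries in Res499, while Mitf, Pmel, Tyr and Dct had equal numbers in all groups. Col1a1 had fewest there in B16_untreated. Tyr and Col1a1 had fewest libraries in Res499 in full lists alone. Those lists held on average 20180, 13525 and 12121 peaks in B16_untreated, B16_IFNg and Res499. The part of these markers in the Rab result was not tested. The order among the Rab genes did not hold in every form of the count. Without the 4 Rab genes of chromosome X, the counts were 38, 35 and 33 in untreated B16, 35, 36 and 35 after IFNγ and 34, 34 and 33 in Res499, and B16_untreated then overlapped Res499. In the 4607 most significant peaks the order turned around, with means of 22.3, 23 and 25.3 Rab genes in B16_untreated, B16_IFNg and Res499. The libraries overlapped there, with 20, 25 and 22, then 23, 25 and 21, then 26, 26 and 24 Rab genes, or 37.9% ± 4.27, 39% ± 3.39 and 42.9% ± 1.96 (SD, n = 3 each). All coding genes gave 19% ± 0.331, 19.5% ± 0.662 and 19.8% ± 0.431 (SD, n = 3 each) in the same lists and the same order of groups.

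**Figure D1:**
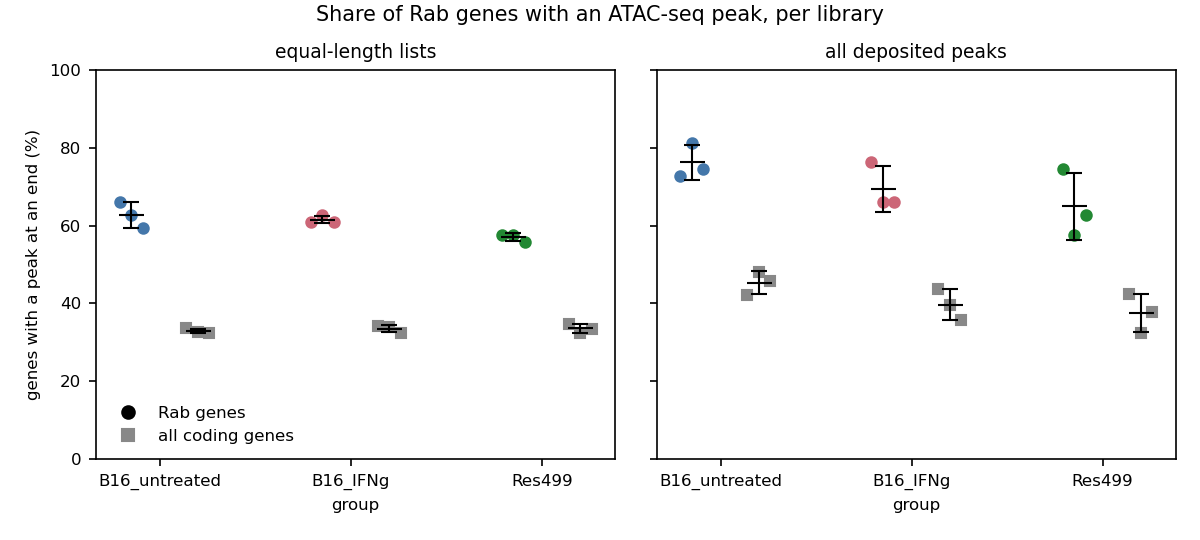
Percentage of genes that have a peak at an end, by group, in lists of equal length (left) and with all deposited peaks (right); circles are Rab genes and grey squares all coding genes, each point is 1 library, and lines with bars give the mean and SD of 3 libraries. On the left the Rab shares lie between 55.9% and 66.1% and the coding shares between 32.4% and 34.7%.

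The family split by how constant its peaks were. Of the 59 genes, 22 (37.3%) had a peak in all 9 top lists, against 20.1% of coding genes. Another 14 (23.7%) had none in any top list, against 55.8% of coding genes, and 23 had a peak in 1 to 8 lists. By role, 9 of 15 genes of the ER and Golgi were in all 9 top lists, 5 of 9 of the early endosome and 2 of 5 of exocytosis and the cell surface. Among genes of late endosomes and lysosomes 1 of 6 was in all 9 lists, among recycling genes 1 of 7 and among secretory vesicle genes 1 of 7. The order of roles was not the same in the full lists, which differ in length: there 4 of 5 exocytosis genes and 4 of 7 secretory vesicle genes were in all 9, while the ER and Golgi stayed at 9 of 15 and the early endosome at 5 of 9. The best median ranks among genes found in all 9 lists belonged to Rab1a (304), Rab8a (309), Rab30 (328), Rab5a (474) and Rab10 (507), which act in ER-to-Golgi traffic, exocytosis, the Golgi, early endosome fusion and exocytosis. The poorest belonged to Rab32 (6308), Rab28 (4900), Rab2a (3933), Rab22a (2893) and Rab7 (2366). Peaks sat mostly at the 5′ gene end: of 373 best peaks in the full lists 299 were nearest that end and 1 was nearest the 3′ end. A further 73 belonged to genes with no strand in the tables used. The 5′ gene end is not always an annotated start: at Rab33a the median summit was at -5755.5 bp from the start.

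**Figure D2:**
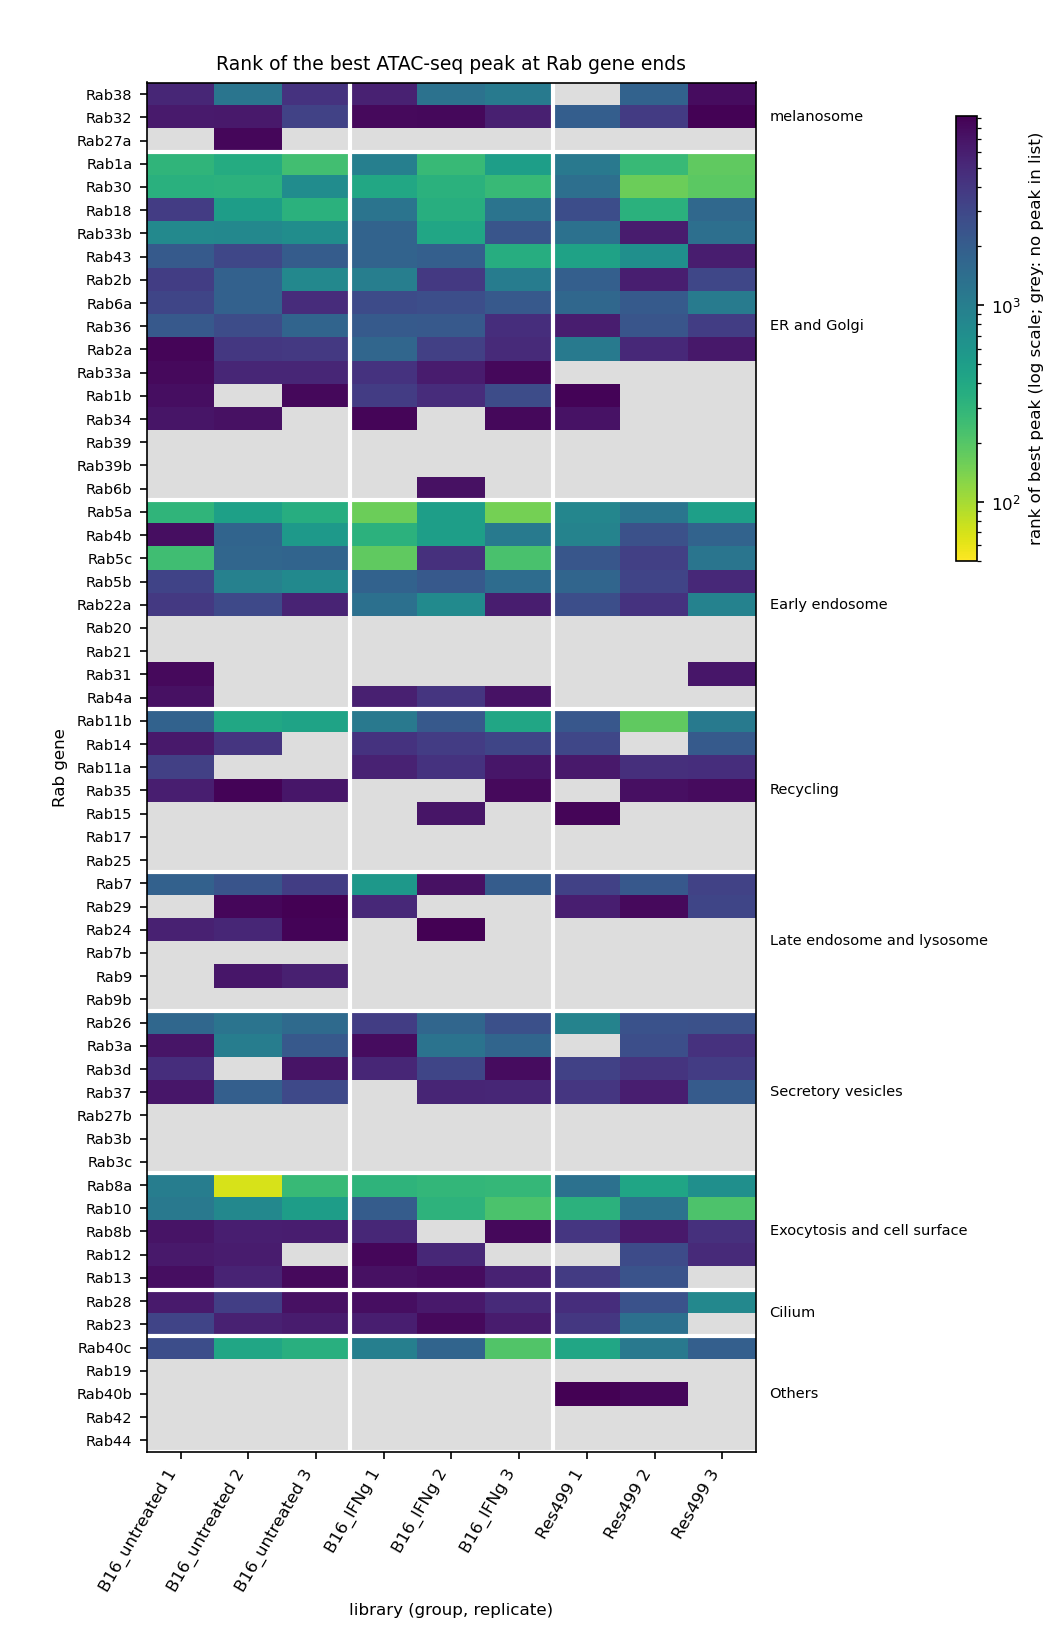
Rank of the best peak at each of the 59 Rab genes (rows, grouped by role) in each of the 9 libraries (columns); colour gives rank on a log scale, with light colours for the most significant peaks, and grey marks a gene with no peak in the top list. Rows such as Rab1a and Rab8a are light throughout. Rab33a is grey in Res499 alone, and Rab24 is grey in Res499 and in B16_IFNg replicates 1 and 3.

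No peak was found in any of the 9 full lists for 9 genes: Rab17 and Rab25, known from epithelial cells, Rab3c, known from neurons, Rab27b, the close relative of Rab27a, and Rab19, Rab21, Rab39, Rab42 and Rab44. Of these, Rab21 and Rab17 came nearest to the limit of 1 kb. Rab21, an early endosome Rab, had its nearest peak 1210 to 1690 bp from the gene end in the 9 libraries, and for Rab17 that distance was 1221 bp at the least with a median of 5286 bp. Just inside, Rab26 counted as open with a peak 733 to 865 bp away. The start that RefSeq's promoter table gives for Rab21 lies 1828 bp inside the gene, and a peak lay there in all 9 full lists and in 2, 3 and 2 top lists of B16_untreated, B16_IFNg and Res499. Rab17 had no peak at the inner start of the table in any list. A further 5 genes had peaks in full lists alone, namely Rab20 in 4 libraries, Rab7b in 3 and Rab3b, Rab39b and Rab9b in 1 each.

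Which Rab genes ranked differently between groups was asked gene by gene. A gene was called when every library of one group ranked its peak higher than every library of the other. Comparing B16_IFNg with B16_untreated, 3 of 44 Rab genes with a peak ranked higher in B16_IFNg (Rab43, Rab4a and Rab1b) against a background of 4.77% of coding genes, and 2 ranked higher in B16_untreated (Rab24 and Rab26) against 3.61%. In Res499 against B16_untreated, 2 of 44 ranked higher in Res499 (Rab29 and Rab3d; background 5.54%) and 4 ranked higher in B16_untreated (Rab24, Rab33a, Rab33b and Rab5a; background 4.95%). In Res499 against B16_IFNg, 2 of 43 ranked higher in Res499 (Rab28 and Rab6a; background 4.41%) and 4 ranked higher in B16_IFNg (Rab1b, Rab33a, Rab4a and Rab8a; background 4.51%). The shares among Rab genes were 6.82%, 4.55%, 4.55%, 9.09%, 4.65% and 9.3% in the same order. With so few genes called, these counts are near the background, and the 9.09% and 9.3% rest on 4 genes each. The 3 comparisons share groups and are not independent of each other.

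In the top lists, a peak in all 3 libraries of one group and in no library of the other was rarer. In Res499 against B16_untreated Rab24 and Rab33a, 2 of 44 genes, had it in B16_untreated alone, as did 0.682% of coding genes. In Res499 against B16_IFNg Rab33a and Rab4a, 2 of 43 genes, had it in B16_IFNg alone, as did 0.516% of coding genes. Full lists held the peaks of Rab24, Rab33a and Rab4a in 2 of 3 Res499 libraries each, so these peaks were not absent from Res499. When B16_IFNg and Res499 were set together against B16_untreated, 0 of 45 Rab genes ranked higher in the 6 libraries (background 0.962%) and 1, Rab24, ranked higher in B16_untreated (background 0.982%). That gene was also the only one of the 45 with an unadjusted exact permutation p under 0.05, which 3.71% of coding genes had. The design limits these tests: 3 libraries against 3 cannot give a two-sided exact permutation p below 0.1, which every called gene reached, and after Benjamini-Hochberg adjustment over all coding genes tested no gene passed 0.05 in any comparison. The median log2 rank difference of the Rab genes was -0.04 in B16_IFNg against B16_untreated, 0.11 in Res499 against B16_untreated and 0.09 in Res499 against B16_IFNg. For all coding genes the medians were -0.03, -0.04 and -0.01.

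When a library was left out the number of calls could only stay or rise, since fewer libraries separate more easily. This holds for any gene, and the share of all coding genes called with a library left out is not given here. These counts are therefore not set against a background. In B16_IFNg against B16_untreated, 5 calls in all became 8 to 10 when any 1 of the 6 libraries was left out. In Res499 against B16_untreated, 6 calls became 10 without Res499 replicate 1 or 3. They became 13 without Res499 replicate 2 or B16_untreated replicate 1, and 11 without B16_untreated replicate 2. Over all omissions in this comparison they ran from 6 to 13. In Res499 against B16_IFNg, 6 calls became 12 without Res499 replicate 1 or B16_IFNg replicate 2, 11 without Res499 replicate 2 or 3, and 10 without B16_IFNg replicate 1. The single call of the 6-library comparison became 5 without B16_untreated replicate 1, 3 without B16_untreated replicate 2, and 2 without B16_IFNg replicate 2, Res499 replicate 1 or Res499 replicate 3.

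**Figure D3:**
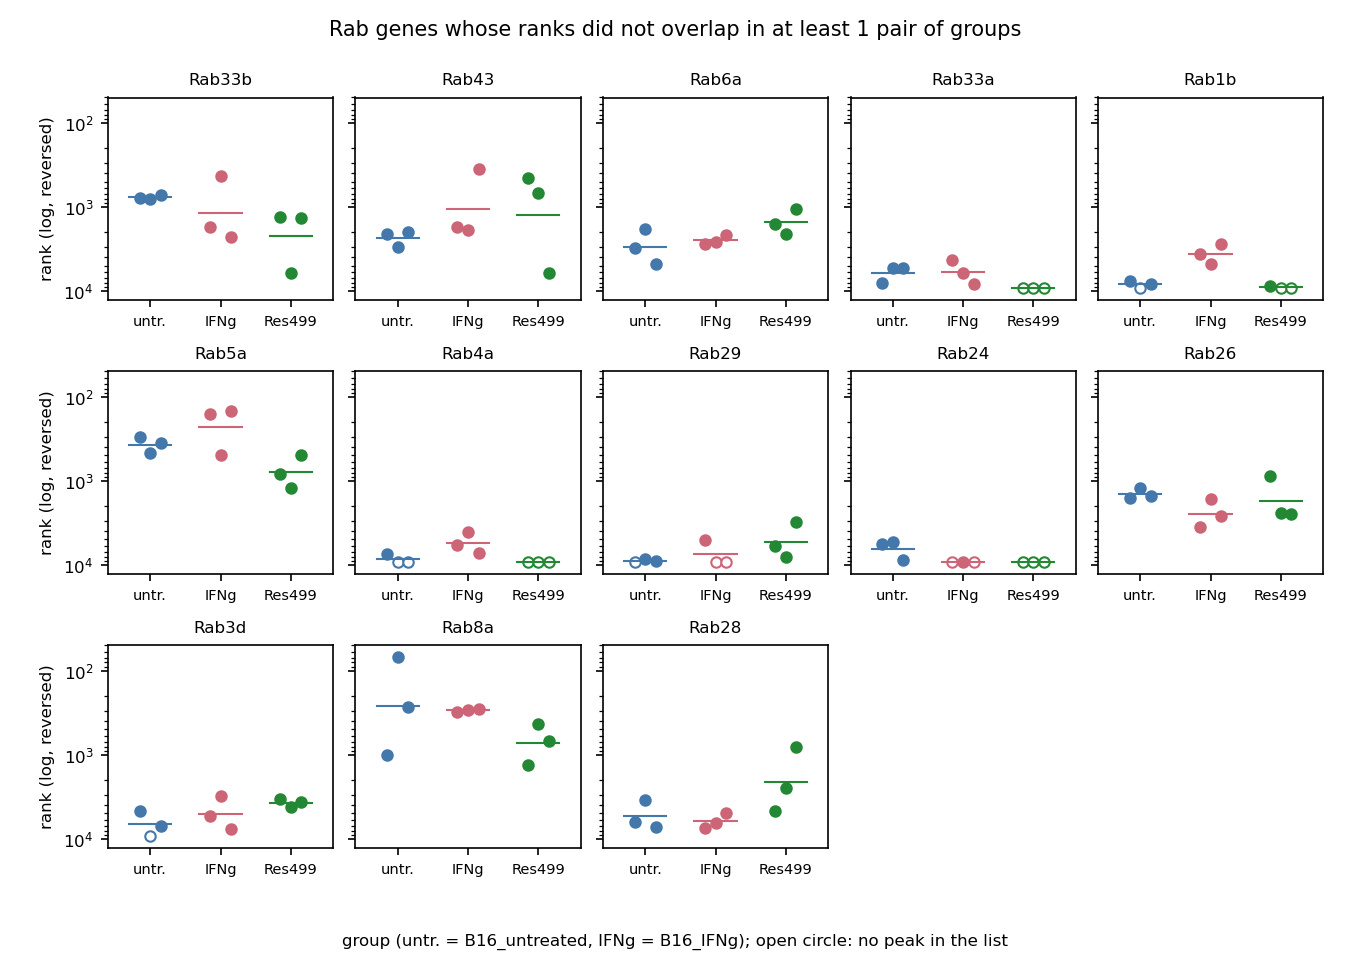
Rank of the best peak on a reversed log axis (significant peaks at the top) for each Rab gene whose ranks did not overlap between a pair of groups; each circle is 1 library, lines are the means of log2 rank in a group, and open circles at 9215 are libraries without a peak in the top list. At Rab24 and Rab33a all 3 Res499 libraries are open circles at 9215.

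The 3 melanosome Rabs ranged from a peak in every library to nearly none, and no group stood apart at any of them. Rab32 (gene 67844, chr10:10545039-10558207, minus strand) is the 1 of the 3 with a peak in all 9 top lists. Its ranks were 6308, 6440 and 3310 in untreated B16, 8088, 8184 and 5829 after IFNγ and 1949, 3694 and 8959 in Res499. The groups overlapped, and Res499 held both the best rank and the poorest. Rab38 (gene 72433, chr7:88430273-88491572), its closest relative in function, ranked 5244, 1202 and 4276 in untreated B16, 5726, 1292 and 1104 after IFNγ and 1793 and 7791 in Res499 replicates 2 and 3, with no peak in Res499 replicate 1. Here too the groups overlapped. For both genes the exact permutation p was at least 0.2 in every comparison of 2 groups.

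Rab27a (gene 11891, chr9:73044810-73097623, plus strand) had almost no peak at its annotated ends. A peak was in the top list of 1 library, B16_untreated replicate 2 at rank 8454. Full lists added B16_untreated replicates 1 and 3 and B16_IFNg replicate 3, at ranks 13100, 11889 and 11057 of their own lists, and none in Res499. A second RefSeq start of the gene lies 19338 bp inside it. There, full lists held a peak in all 3 B16_untreated libraries (ranks 13673, 11057 and 8716), in all 3 B16_IFNg libraries (8852, 9571 and 6562) and in Res499 replicate 3 (9305). Within the top lists this inner peak was in 1, 2 and 0 libraries of B16_untreated, B16_IFNg and Res499, so the inner start had a peak at least as often as the outer one. Full lists differ in length, with 9214 peaks in Res499 replicate 2 and 15385 in Res499 replicate 1, and both lacked this peak.

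The start regions of Rab27a and Rab32 are shown as the melanosome Rab starts that the promoter table holds. The Rab32 peaks have their median summit at -43 bp, inside the window. The outer Rab27a peaks have theirs at -518.5 bp, upstream of it, and the 1 top-list peak ends at 73044472, before the window begins. In the full lists, 4 libraries had a peak that overlapped the outer window. Each runs 5′ to 3′ on the gene's strand from 250 bases before the start to 50 after it, in GRCm38.p6 as RefSeq gives it. Capitals mark matches, on either strand, to 8 short motifs: CACGTG and CATGTG, E-boxes of the kind that MITF binds, TGACGTCA (CRE), TGAGTCA (AP-1), GGGCGG (GC box), CCAAT, GCATGCGC (NRF1) and GAAANNGAA (interferon response). The Rab27a outer start is chr9:73044560-73044859, the inner start chr9:73063898-73064197 and the Rab32 start chr10:10558158-10558457.
Rab27a outer start: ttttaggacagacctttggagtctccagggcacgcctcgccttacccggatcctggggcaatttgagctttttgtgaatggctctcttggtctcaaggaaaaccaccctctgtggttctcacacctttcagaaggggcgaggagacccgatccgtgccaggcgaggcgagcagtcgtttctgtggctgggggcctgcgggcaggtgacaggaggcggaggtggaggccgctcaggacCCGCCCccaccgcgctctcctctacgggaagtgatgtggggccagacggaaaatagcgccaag
Rab27a inner start: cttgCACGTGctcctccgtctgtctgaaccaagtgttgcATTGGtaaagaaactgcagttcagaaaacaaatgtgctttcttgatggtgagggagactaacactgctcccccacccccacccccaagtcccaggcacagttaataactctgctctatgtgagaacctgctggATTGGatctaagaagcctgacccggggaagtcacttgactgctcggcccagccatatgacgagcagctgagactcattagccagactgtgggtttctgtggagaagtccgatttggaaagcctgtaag
Rab32 start: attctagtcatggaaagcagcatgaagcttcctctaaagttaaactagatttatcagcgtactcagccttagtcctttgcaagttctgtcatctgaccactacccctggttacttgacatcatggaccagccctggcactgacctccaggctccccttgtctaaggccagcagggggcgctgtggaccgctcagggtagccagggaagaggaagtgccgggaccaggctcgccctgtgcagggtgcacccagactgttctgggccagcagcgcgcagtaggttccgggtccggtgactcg
Counting from the start as 0, with bases before it negative, the inner Rab27a window holds CACGTG with its first base at -246 and CCAAT at -211 and -78, and the outer window holds a GC box at -13. None of the 8 motifs is in the Rab32 window. Among 60 Rab start windows 10% hold CACGTG and 10% hold CATGTG, against 7.84% and 11.5% of 21263 windows of coding genes. The GC box was in 68.3% of Rab windows and 46.2% of coding windows, CCAAT in 43.3% and 38.2%, and GAAANNGAA in 5% and 8.15%. The CRE was in 3.33% and 2.23%, the AP-1 motif in 5% and 4.66% and the NRF1 motif in 3.33% and 3.52%. A match of letters is a description and shows no binding.

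In the windows of Rab genes with a peak in all 9 top lists the median number of CpG dinucleotides was 27, against 25 in those of Rab genes with a peak in 1 to 8 lists and 10 in those of the 14 Rab genes with no top-list peak at a gene end. That last set includes Rab21, which has peaks at its inner start, and genes with peaks in full lists alone. The same split over coding genes gave 25 for those in all 9 top lists and 5 for those in none. The medians rest on genes with an entry in the promoter table. These were 20 of the 23 Rab genes in 1 to 8 lists and 11 of the 14 in none. Of the 22 Rab genes in all 9 lists, 17 had an entry. In 15 of these 17 the median summit lay within 250 bp of a start.

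Among the 15 genes of the ER and Golgi, Rab1a, which starts transport out of the ER, held ranks of 304, 372 and 241 in untreated B16, 977, 272 and 494 after IFNγ and 1126, 272 and 178 in Res499. Its paralogue Rab1b (gene 76308, chr19:5099207-5106996) ranked 7563 and 8306 in B16_untreated replicates 1 and 3, 3623, 4741 and 2763 in B16_IFNg and 8710 in Res499 replicate 1, and had no top-list peak in the other 3 libraries. Every B16_IFNg library ranked Rab1b above every other library. The mean log2 rank difference from B16_untreated was -1.20 (SE 0.239, exact permutation p = 0.1, adjusted p = 1), and that of Res499 from B16_IFNg was 1.32 (SE 0.226, exact permutation p = 0.1, adjusted p = 1). The peak also lies within 1 kb of an end of Klc2 in all 7 full lists that have it, so it cannot be given to Rab1b alone.

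Rab43, a Golgi Rab, ranked 2099, 3012 and 2010 in untreated B16, 1761, 1887 and 359 after IFNγ and 453, 691 and 6117 in Res499. B16_IFNg was ahead of B16_untreated in every library, by a narrow margin in 2 of them, with a mean log2 rank difference of -1.14 (SE 0.804, exact permutation p = 0.1, adjusted p = 1). Rab33b, which acts in Golgi traffic and autophagosome formation, ranked 794, 800 and 715 in untreated B16, 1754, 424 and 2318 after IFNγ and 1305, 6161 and 1367 in Res499. All 3 Res499 libraries were behind B16_untreated, by 1.53 on the log2 scale (SE 0.737, exact permutation p = 0.1, adjusted p = 0.953), and the 3 untreated ranks lay close together. Rab6a, which serves retrograde traffic to the Golgi, ranked 2775, 2646 and 2167 in B16_IFNg and 1609, 2082 and 1060 in Res499, a log2 difference of -0.72 (SE 0.304, exact permutation p = 0.1, adjusted p = 1). Its B16_untreated ranks of 3101, 1823 and 4730 overlapped Res499.

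Rab33a (gene 19337, chrX:48513663-48530240, plus strand), the X-linked relative of Rab33b, had the same peak in every B16 library and in no top list of Res499. Its ranks were 8113, 5280 and 5285 in B16_untreated and 4289, 6189 and 8232 in B16_IFNg. Res499 replicates 1 and 3 had the peak further down their full lists, at 11050 and 9535, and replicate 2 did not have it. Against Res499 the log2 rank difference was 0.60 from B16_untreated (SE 0.206, exact permutation p = 0.1, adjusted p = 0.953) and 0.61 from B16_IFNg (SE 0.272, exact permutation p = 0.1, adjusted p = 1). The peak lies at the lower gene end and within 1 kb of an end of Aifm1 in all 8 full lists that have it. The start given by the promoter table lies 5622 bp inside Rab33a and had no peak in any list, so with starts alone the difference was 0. Chromosome X as a whole held a smaller share of Res499 peaks, as given above, and its part in this result was not tested. The window of that inner start, chrX:48519035-48519334 on the plus strand, is shown as the one without a peak, and it holds none of the 8 motifs and 7 CpG dinucleotides.
Rab33a inner start: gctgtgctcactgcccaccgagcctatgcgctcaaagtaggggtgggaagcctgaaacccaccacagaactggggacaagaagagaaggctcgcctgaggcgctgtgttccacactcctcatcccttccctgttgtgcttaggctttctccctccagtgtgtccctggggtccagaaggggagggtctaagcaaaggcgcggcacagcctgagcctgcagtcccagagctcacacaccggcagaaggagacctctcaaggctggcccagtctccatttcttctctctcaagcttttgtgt

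Early endosome Rabs were led by Rab5a, the organiser of early endosome fusion (gene 271457, chr17:53479234-53507678, plus strand). It ranked 303, 474 and 356 in untreated B16, 160, 493 and 149 after IFNγ and 842, 1222 and 489 in Res499. The Res499 libraries were the 3 poorest against B16_untreated, though replicate 3 at 489 was next to the poorest untreated rank of 474, and they overlapped B16_IFNg. The log2 rank difference from B16_untreated was 1.10 (SE 0.428, exact permutation p = 0.1, adjusted p = 0.953). It dropped to 0.18 and the groups overlapped when peaks were ranked by fold enrichment. The Rab5a start window, chr17:53478984-53479283 on the plus strand, is shown because it holds the most kinds of motif among the windows given here: CACGTG at -235 and -95, the CRE at -28, a GC box at -80 and CCAAT at -246.
Rab5a start: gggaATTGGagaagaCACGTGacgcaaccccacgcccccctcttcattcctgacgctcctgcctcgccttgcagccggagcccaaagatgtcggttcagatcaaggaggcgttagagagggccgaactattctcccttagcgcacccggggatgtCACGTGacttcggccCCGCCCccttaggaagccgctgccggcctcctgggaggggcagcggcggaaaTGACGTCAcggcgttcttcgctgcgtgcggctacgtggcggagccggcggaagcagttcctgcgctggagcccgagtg

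Rab5b and Rab5c, the other Rab5 genes, were in all 9 top lists with median ranks of 1791 and 1641, and Rab5a was ahead of Rab5b in all 9 libraries and of Rab5c in 8. The Rab5b peak overlaps the annotated span of Pmel, the melanosome matrix gene, in all 9 libraries. Rab4a, a Rab of rapid recycling from early endosomes (gene 19341, chr8:123805846-123835291), had a top-list peak in B16_untreated replicate 1 (7362) and in all 3 B16_IFNg libraries (5802, 4126 and 7181). Full lists held it at 15228 and 12746 in untreated replicates 2 and 3 and at 11762 and 10164 in Res499 replicates 1 and 3. B16_IFNg was ahead of both other groups without overlap, with a log2 rank difference of -0.62 from B16_untreated (SE 0.257, exact permutation p = 0.1, adjusted p = 1) and 0.73 for Res499 against B16_IFNg (SE 0.233, exact permutation p = 0.1, adjusted p = 1). Rab4b, its paralogue, ranked above Rab4a in 8 of 9 libraries.

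Recycling Rabs were carried by Rab11b, the only one of the 7 in all 9 top lists, with a median rank of 1078. Rab11a, which returns receptors to the surface, had a median of 5611 and stood behind Rab11b in all 9 libraries. Rab14 was in 7 lists and Rab35 in 6, Rab15 was in 2 and Rab17 and Rab25 in none. None of the 7 was called in a comparison.

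Rab24 (gene 19336, chr13:55319223-55321980, minus strand), linked to autophagy, was the 1 member whose ranks separated B16_untreated from all 6 other libraries. It ranked 5687, 5290 and 8840 in B16_untreated and 9191 in B16_IFNg replicate 2, and was in none of the other top lists. The full lists held it at 11733 and 9940 in B16_IFNg replicates 1 and 3 and at 10741 and 9954 in Res499 replicates 1 and 3, so the peak ranked lower in those libraries and was missing in Res499 replicate 2 alone. Over 3 against 6 libraries the log2 rank difference was 0.52 (SE 0.231, exact permutation p = 0.0119, the smallest this design allows, adjusted p = 1). Against B16_IFNg and Res499 taken singly it was also 0.52 (SE 0.232 and 0.231, exact permutation p = 0.1 for each, adjusted p = 1 and 0.953). The groups came close, at 8840 for the poorest untreated rank and 9191 for the best of the others. In lists of 4607 peaks Rab24 had no peak anywhere and the difference was 0. In all 8 full lists with the peak it also lies within 1 kb of an end of Prelid1, whose annotated span begins at 55322055, next to the Rab24 start. The window chr13:55321931-55322230, minus strand, is shown as the region on which that comparison turns, with CACGTG just after the start, at 2.
Rab24 start: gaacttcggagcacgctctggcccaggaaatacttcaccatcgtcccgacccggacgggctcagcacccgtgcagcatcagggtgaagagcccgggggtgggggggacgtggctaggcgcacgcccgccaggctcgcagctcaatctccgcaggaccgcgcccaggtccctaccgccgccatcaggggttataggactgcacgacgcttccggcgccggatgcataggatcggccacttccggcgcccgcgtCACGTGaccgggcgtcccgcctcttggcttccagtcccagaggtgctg

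Rab7, the main late endosome Rab, was the 1 gene of its class in all 9 top lists, with ranks from 576 to 7324. Rab29, a Rab of lysosomes and the Golgi, ranked 8483 and 9070 in B16_untreated replicates 2 and 3, 5059 in B16_IFNg replicate 1 and 5966, 8121 and 3128 in Res499. Res499 was ahead of B16_untreated in all 3 libraries, by -0.74 on the log2 scale (SE 0.407, exact permutation p = 0.1, adjusted p = 0.953), but the groups overlapped when peaks were ranked by fold enrichment or had to touch the gene end. Rab9, which returns receptors from late endosomes and lies on chromosome X, had a top-list peak in B16_untreated replicates 2 and 3 alone, at 6756 and 5850. Full lists held it in B16_IFNg replicates 1 and 2, at 12195 and 10692.

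Among secretory vesicle Rabs, Rab3d, found on secretory granules, ranked 4654 and 6986 in B16_untreated replicates 1 and 3, 5301, 3096 and 7765 in B16_IFNg and 3335, 4190 and 3669 in Res499. Res499 was ahead of B16_untreated without overlap, by -0.85 on the log2 scale (SE 0.302, exact permutation p = 0.1, adjusted p = 0.953). Rab26, also of secretory vesicles, ranked 1627, 1232 and 1504 in untreated B16, 3600, 1635 and 2602 after IFNγ and 890, 2451 and 2520 in Res499. B16_IFNg was behind B16_untreated by 0.78 (SE 0.351, exact permutation p = 0.1, adjusted p = 1), with 1627 and 1635 as the nearest ranks, and the groups overlapped when peaks were ranked by fold enrichment. All of its peaks are 733 bp or more from Rab26 and within 1 kb of an end of Traf7 in all 9 libraries, and none touches Rab26. Rab3a, best known from synaptic vesicles, was in 8 top lists with a median rank of 2641, while its paralogues Rab3b and Rab3c were in none.

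Rab8a, which directs vesicles to the plasma membrane and the cilium, ranked 1001, 69 and 274 in untreated B16, 309, 293 and 287 after IFNγ and 1318, 433 and 682 in Res499. The rank of 69 was the best of any Rab gene in any library. Res499 fell behind B16_IFNg in every library, by 1.30 on the log2 scale (SE 0.467, exact permutation p = 0.1, adjusted p = 1), and both overlapped B16_untreated. Rab10 was in all 9 top lists with a median of 507 and Rab8b in 8 with a median of 6108. Rab28, a Rab of the photoreceptor and other cilia, ranked 6301, 3496 and 7250 in untreated B16, 7525, 6458 and 4900 after IFNγ and 4693, 2492 and 807 in Res499. Res499 was ahead of B16_IFNg by -1.55 (SE 0.765, exact permutation p = 0.1, adjusted p = 1) and overlapped B16_untreated. Rab40c, of a Rab branch that binds ubiquitin ligases, had a median rank of 966, whereas Rab40b was in 2 top lists, both of Res499.

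Of 21 pairs of paralogues, 8 had the same gene ahead in all 9 libraries. These were Rab1a over Rab1b, Rab5a over Rab5b, Rab6a over Rab6b, Rab7 over Rab7b, Rab8a over Rab8b, Rab11b over Rab11a, Rab33b over Rab33a and Rab40c over Rab40b. Rab6b had a top-list peak in 1 library and Rab7b in none. Rab5a was ahead of Rab5c and Rab4b of Rab4a in 8 of 9 libraries, and Rab3a and Rab3d were each ahead of Rab3b and of Rab3c in 8 with 1 tie. Rab2b was ahead of Rab2a in 6, Rab3a of Rab3d in 5 and Rab5b of Rab5c in 5. The remaining 4 pairs were tied in most or all libraries because neither gene had a top-list peak, with 7 ties for Rab9 and Rab9b, 8 for Rab27a and Rab27b, and 9 each for Rab39 and Rab39b and for Rab3b and Rab3c. The 9 libraries share the genome's base composition at each start, so this is a description of ranks and was not tested.

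**Figure D4:**
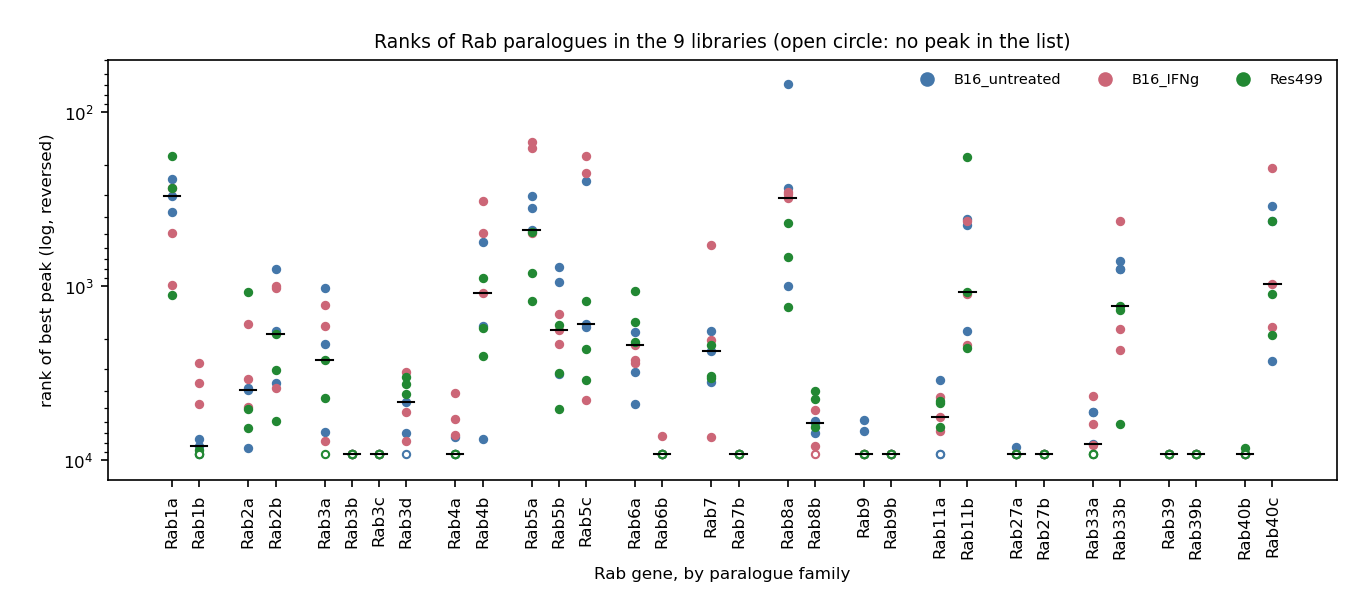
Rank of the best peak on a reversed log axis (significant peaks at the top) for Rab paralogues side by side; each circle is 1 of the 9 libraries coloured by group, black lines are medians, and open circles at 9215 are libraries without a top-list peak. Rab1a (median 304) and Rab8a (median 309) lie apart from Rab1b (median 8306) and Rab8b (median 6108).

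Some peaks could as well belong to a neighbour. Of the 50 Rab genes with a peak in any full list, 10 (20%) shared their best peak with the end of another coding gene, against 29.1% of 11084 coding genes. Besides those named above these were Rab13 with Rps27, Rab4b with Mia, Rab6a with Mrpl48, Rab37 with Slc9a3r1 and Rab2b with Tox4. Of the 4 Rab genes called in favour of B16_untreated over Res499, Rab24 and Rab33a were among them.

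The proteins that run the Rab cycle were read from a fixed list. Of 8 genes for escort and lipid attachment 4 had a peak in all 9 top lists, and of 29 exchange factors 9. The same held for 12 of 38 GTPase activating proteins and 12 of 41 effectors, against 20.1% of all coding genes. In B16_IFNg against B16_untreated, calls higher and lower in the first-named group numbered 0 and 0 of 4 escort genes, 2 and 0 of 23 exchange factors, 3 and 2 of 30 activating proteins and 3 and 0 of 28 effectors. In Res499 against B16_untreated they numbered 0 and 0 of 5, 1 and 0 of 24, 2 and 1 of 30 and 4 and 0 of 30. In Res499 against B16_IFNg they numbered 0 and 1 of 5, 0 and 0 of 24, 0 and 2 of 29 and 4 and 0 of 30. Over all coding genes, 4.77% were called higher and 3.61% lower in B16_IFNg against B16_untreated. The shares were 5.54% and 4.95% in Res499 against B16_untreated and 4.41% and 4.51% in Res499 against B16_IFNg. Dennd1b, Tbc1d31 and Micall1 ranked higher in all 6 B16_IFNg and Res499 libraries than in B16_untreated, as did 0.962% of coding genes. Tbc1d20 ranked lower in all 6, as did 0.982%. No test is reported for these genes. Dennd1b, an exchange factor of Rab35, had no top-list peak in B16_untreated and ranked 8504, 3952 and 5528 in B16_IFNg and 8351, 1895 and 4832 in Res499. Tbc1d20, an activating protein for Rab1, ranked 2284, 1119 and 2957 in untreated B16. Its ranks were 4667, 3324 and 6720 after IFNγ and 4703, 4905 and 2974 in Res499. It was behind in all 6, but narrowly, with 2957 and 2974 as the nearest ranks. Tbc1d31, of the same protein family, went the other way, with ranks of 3649, 3901 and 3592 in untreated B16, 2191, 437 and 1579 after IFNγ and 1483, 1422 and 924 in Res499. Micall1, an effector of Rab8 and Rab35, had a top-list peak in 1 untreated library (8805) and in all 6 others, at 6648, 7288 and 6351 in B16_IFNg and 5717, 5519 and 5899 in Res499.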

How the data were processed

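The 9 ATAC-seq peak lists were read, 1 per library; the authors deposited a separate list for each replicate. Per the submitters' processing notes, CASAVA, cutadapt 1.9, Bowtie2 2.2.4, MACS2 and the mouse build GRCm38 (mm10) were used. The version and options of MACS2, and whether reads were shifted for transposase cutting, are not given in the sources used here, and read depth is not in the lists, so the number of peaks stands in for it. The deposited columns give each peak's position, a score, the fold enrichment at its summit (a ratio), and −log10 p and −log10 q values.

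Lists were cut to the 9214 peaks with the highest deposited −log10 p, the length of the shortest list on placed chromosomes. This makes list lengths equal but does not remove differences in signal quality. Gene ends, names and start windows came from RefSeq tables of GRCm38.p6; 48 of 59 members had a start window, and no gene structure beyond gene ends, starts and strand was used. Rab30, Rab2a, Rab7b, Rab27b, Rab36, Rab37, Rab18, Rab4a, Rab26, Rab38 and Rab44 had none. Differences in mean log2 rank were tested over all coding genes with a peak by two-sided exact permutation of library labels, with Benjamini-Hochberg adjustment (Python 3.11.15, pandas 2.3.3, numpy 2.4.6); the code was tested on simulated data. Genes were named by rule: the 3 melanosome Rabs, members called in a comparison, the 5 best and 5 poorest median ranks among members in all 9 lists, and members with no peak; other members, Rab cycle genes and neighbours were named after their values were seen. The members and gene lists were chosen with earlier results of these data known.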

Additional observations from a re-analysis of the deposited data

How the results depend on the processing

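Alternatives changed list length, ranking column, window, gene end, libraries and pairing. In lists of 4607 peaks the numbers of Rab genes with non-overlapping ranks were 2 in B16_IFNg against B16_untreated, 3 in Res499 against B16_untreated, 2 in Res499 against B16_IFNg and 0 in both against B16_untreated, where the full comparison gave 5, 6, 6 and 1; a gene ranked beyond 4607 cannot be called there. Annotated starts alone gave 3 for B16_IFNg against B16_untreated. Leaving out 1 library gave 8 to 10, 6 to 13, 8 to 12 and 1 to 5. Deviations of same-numbered libraries correlated weakly (0 of 9 pairs over 0.1, range -0.0125 to 0.0993), but 7 of 9 libraries correlated best with their own number. A replicate effect was not tested. Comparing ranks within the replicate block, a weaker rule that every call passes, gave 10, 10, 12 and 1. The share of all coding genes called under each alternative is not given here, so these numbers of calls are not set against a background. The mean number of Rab genes with a peak, 37, 36.3 and 33.7 in B16_untreated, B16_IFNg and Res499, became 45, 41 and 38.3 with all peaks, 22.3, 23 and 25.3 with 4607 peaks, 32.3, 31 and 28.3 with peaks that touch a gene end, and 29.7, 29.3 and 27.7 with starts alone. A window of 2.5 kb gave 38.3 in B16_IFNg and 35 in Res499, and its value for B16_untreated is not given here. The libraries with long shortest peaks had 39 and 35 in B16_untreated, 36 in B16_IFNg and 33 in Res499. Counting Rab5if and Rab3ip, chosen after seeing the data, gave 39, 38.3 and 35.7; leaving out chromosome X, also chosen after seeing the data, gave 5, 5, 5 and 1 calls. The 22 genes in all 9 lists became 10 with 4607 peaks. Of 335 gene-level values under alternatives, 298 kept direction and call, 18 lost the call and 19 values without a call moved; none reversed. By its definition a call cannot be lost or reversed when a library is left out or ranks are compared within the replicate block. The total that kept direction and call is therefore no measure of how stable the calls are. Ranks in lists of unequal length were not compared. The cause of these changes was not tested. Read depth is not in the lists, so a missing top-list peak is not evidence of closed chromatin.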

Other observations

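Rab5if and Rab3ip, whose symbols match the naming rule although neither encodes a GTPase, had peaks in all 9 top lists. Rab5if ranked 2470, 5866 and 1860 in untreated B16, 2095, 3473 and 2121 after IFNγ and 593, 4441 and 2167 in Res499. Rab3ip, an exchange factor of Rab8, ranked 3989, 4036 and 4097 in untreated B16, 1888, 1991 and 4741 after IFNγ and 2777, 6290 and 2358 in Res499. The groups overlapped for both genes.

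Some Rab genes had peaks inside the gene, more than 1 kb from either end. Rab2a, an ER-to-Golgi Rab, had such peaks in the top lists of all 9 libraries. Rab31, a Rab of the trans-Golgi network and endosomes, had them in 3, 2 and 1 top lists of B16_untreated, B16_IFNg and Res499. In the full lists Rab31 had them in 3, 2 and 3, so Res499 was not lower there. Rab38 had them in 1, 1 and 0 top lists and in 3, 1 and 0 full lists. Full lists differ in length, and differences between groups were not tested. A start of Rab15 inside the gene, 8903 bp from one end, had a peak in the full lists of all 3 B16_untreated libraries (ranks 13011, 18318 and 17714) and all 3 B16_IFNg libraries (12475, 10803 and 9782), and in 0 of 3 Res499 lists; 2 of those 3 lists are shorter than most of these ranks.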
